A study of Homo sapiens with 42 samples.

Results

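Contacts between the short arm of chromosome 9 and 3 viewpoints on its long arm were described from a chromosome conformation capture experiment in K562-FUCCI cells. The members were all contact lines on chromosome 9 with a start below 47000000 in the hg19 build, in any library. These were 4142 distinct positions of 140567 in the whole series, or 5441 lines of 686700 (0.792%). A line is 1 listed partner position of a viewpoint. The short-arm lines ran from position 24200 to position 46999473 and filled 47 bins of 1 Mb.

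K562 is a chronic myeloid leukaemia line, and the cells carried a FUCCI cell-cycle reporter knocked in at the AAVS1 locus, which every group shares. Asynchronous cells were stained with Hoechst and sorted into a G1 fraction and 6 S-phase fractions, S1 to S6. Contacts were read from a Proximal and a Distal primer, both inside a fountain, and from an Outside primer, giving 21 groups of 2 libraries and 42 libraries. Whether a group's 2 libraries stem from different cultures is not labelled, and the tests below therefore reflect library-to-library spread that may be purely technical. The labels give no allele or treatment that differs between groups, only the sorted fraction and the primer.

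In 3C, chromatin is fixed, cut and religated, so that DNA ends that lay close together in the nucleus become joined. Contacts fall steeply with distance along a chromosome, and a chromosome tends to occupy its own territory, so that positions on the same chromosome are joined more often than positions on other chromosomes. The pericentromeric part of the short arm of chromosome 9 is rich in duplicated sequence, in which short reads are hard to place, and beyond it lies a large block of heterochromatin. K562 cells are known to have lost part of this arm, including CDKN2A, which encodes an inhibitor of cell-cycle kinases. Genes were not placed on the bins, because the gene table used here has another genome build than the contact files.

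Every library held 16350 lines, so depth before this step is unknown, and the number of lines sets the precision. A library had between 64 and 265 short-arm lines, and intervals below cover counting error only. The viewpoints lay at positions 111624875 (Proximal), 111525048 (Distal) and 111110106 (Outside), which put the centromeric end of the members 64.6, 64.5 and 64.1 Mb away. Proximal had 1529 short-arm lines at 1057 distinct positions, Distal 1671 at 1467, and Outside 2241 at 1703. The Proximal S6 libraries stood apart from each other, with 64 and 148 short-arm lines, and results that turn on the second of them are given with and without it.

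The arm fell into a sparse distal segment and a dense centromeric segment, with an abrupt step between them. The boundary that best separated distinct positions into 2 densities, on a grid of 10 kb, lay at 37.09 Mb. Distinct positions numbered 14 per Mb below it and 366 per Mb above it, which is 26.1 times as many. Since the boundary was placed by these counts, they are a description and carry no test. The 100 kb just below the step held 1 line, and the 100 kb just above it held 42 lines from 22 libraries. Over 500 kb the counts were 5 lines below and 279 above, and over 1 Mb they were 10 and 669.

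**Figure D1:**
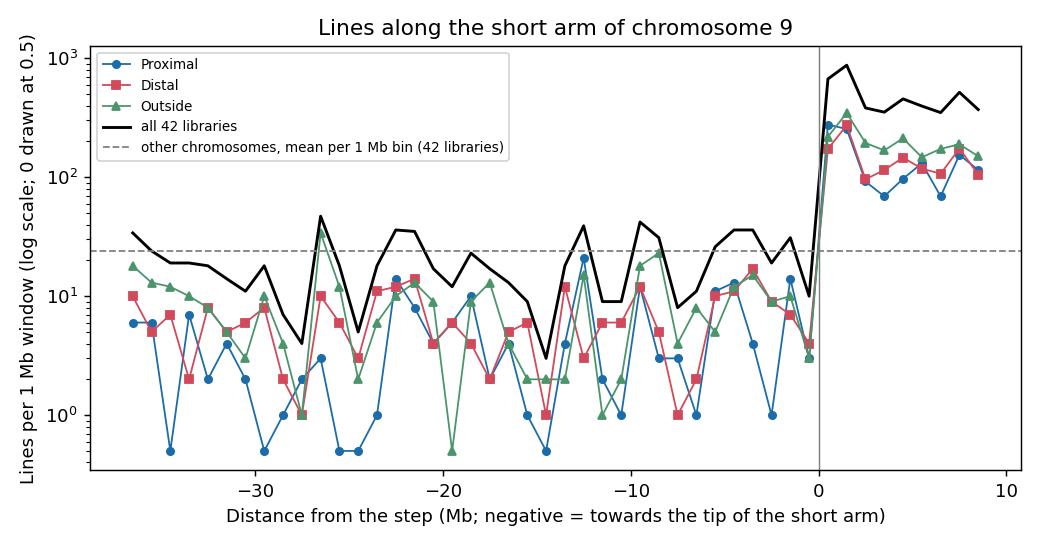
Lines per 1 Mb window along the short arm (log scale) against distance from the step in Mb, for the 14 libraries of each primer (coloured points) and for all 42 libraries (black line). The dashed line marks the mean of 24.0 lines per occupied 1 Mb bin on other chromosomes; the windows left of the step scatter around it, and those right of the step lie far above it.

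The step was found in the same place from each viewpoint. It was at 37.09 Mb for Proximal, 37.10 Mb for Distal and 37.09 Mb for Outside, and these primers had separate libraries. The fold between the sides was 31.9 for Proximal, 23.1 for Distal and 26.9 for Outside. Among fractions, pooled over primers, the boundary lay between 37.09 Mb (S5) and 37.28 Mb (S1). In single libraries, with far fewer positions, it ranged from 35.82 to 37.88 Mb with a median of 37.18 Mb, and 39 of 42 libraries placed it between 37 and 38 Mb. The library at 35.82 Mb was the sparsest, Proximal S6 replicate 1.

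**Figure D2:**
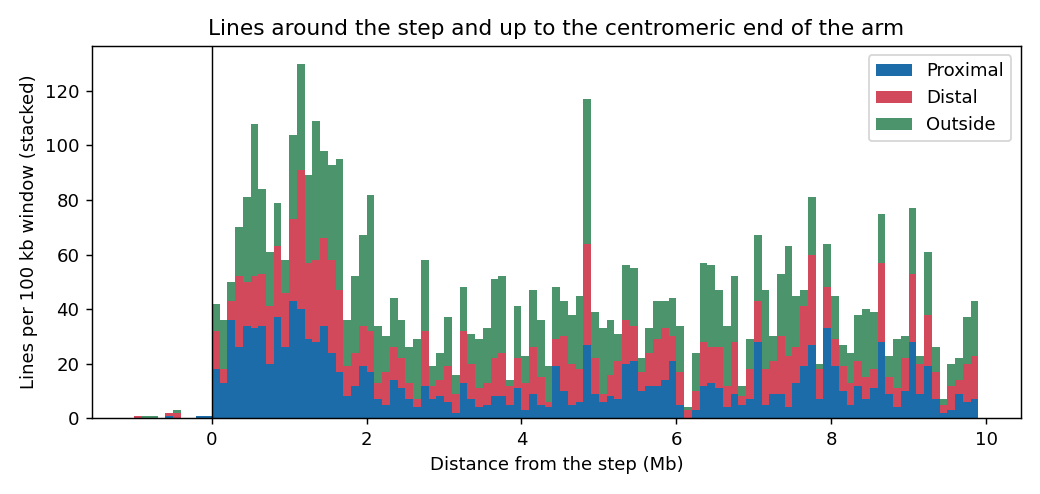
Lines per 100 kb window, stacked by primer, from 1 Mb on the distal side of the step to the centromeric end of the arm, against distance from the step in Mb. Almost no lines lie left of the step; the fullest stretch is the first 2 Mb to its right.

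Above the step the density was not even. A second division of the dense segment, made in the same way, fell at 39.17 Mb with 535 distinct positions per Mb before it and 321 after it. For the single primers it fell at 38.75 Mb (Proximal), 38.78 Mb (Distal) and 39.22 Mb (Outside). The stretch closest to the step, which is also the part of the dense segment farthest from the viewpoints, was the densest. The share of placeable sequence along the segment was not used here, and its part in this unevenness was not tested. The bins from 38 to 39 Mb and from 37 to 38 Mb had 862 and 620 lines. The next fullest were those from 44 to 45 Mb with 495 lines and from 41 to 42 Mb with 462. The bin from 39 to 40 Mb, which completes the 5 bins with most distinct positions, had 419 lines at 334 positions.

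For description the arm was divided at 37 Mb, the bin boundary next to the step. The 10 bins from 37 to 47 Mb had between 336 and 862 lines, with a median of 406, and all 42 libraries had lines in each of them. The 35 long-arm bins from 65 to 100 Mb, on the viewpoints' side of the centromere, had between 227 and 708 lines, with a median of 456. The bin from 38 to 39 Mb was above all 35 of these, and the bin from 37 to 38 Mb was above 33. All 10 bins were also above the fullest bin of any other chromosome, which had 300 lines. Between the dense segment and the long arm, 156 lines lay from 47 to 48 Mb and 0 from 48 to 65 Mb. The last line before 65 Mb was at position 47314797. Whether any read can be placed between there and 65 Mb was not tested, so the 0 is not a measure of contact.

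The 9 pericentromeric bins from 38 to 47 Mb held 4063 of the lines, at 3204 distinct positions. Their 3 fullest were those from 38, 44 and 41 Mb. None was empty, and each held at least 336 lines. At 100 kb, none of the 100 bins from 37 to 47 Mb was empty, and they held from 2 to 124 lines with a median of 40.

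The distal segment, from the tip to 37 Mb, resembled other chromosomes in contact density rather than the rest of its own. It held 758 lines at 518 distinct positions, or 20.5 lines per Mb against 468.3 lines per Mb from 37 to 47 Mb. On the 22 other chromosomes used, the 2760 occupied 1 Mb bins had a mean of 24.0 lines, a median of 22 and quartiles of 16 and 30. The distal segment therefore stood at 0.853 times the mean of other chromosomes (95% exact binomial interval on the split of the counts, 0.793 to 0.916). The mean of 3 of the 22 chromosomes was lower still. By primer the ratio was 0.685 for Proximal (0.588 to 0.794), 0.859 for Distal (0.755 to 0.973) and 0.978 for Outside (0.875 to 1.09). The intervals for Proximal and Distal lay below 1, and that for Outside spanned it. The intervals treat repeated lines as separate and are too narrow to that extent. Copy number and the share of placeable sequence were not used here, and their part in these ratios was not tested.

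Repeated lines were more frequent in this segment than in the dense segment, and less frequent than in whole libraries. Of the Proximal lines there, 37.2% repeated a position already listed in the same library, compared with 27.6% in the dense segment. The shares were 12.8% and 9.50% for Distal and 23.5% and 19.4% for Outside. Proximal S6 replicate 2 had 36 distal-segment lines at 10 positions, and 20 of them were at position 24638377. The other 13 Proximal libraries had at most 18, and without this library the Proximal ratio to other chromosomes was 0.584.

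**Figure D3:**
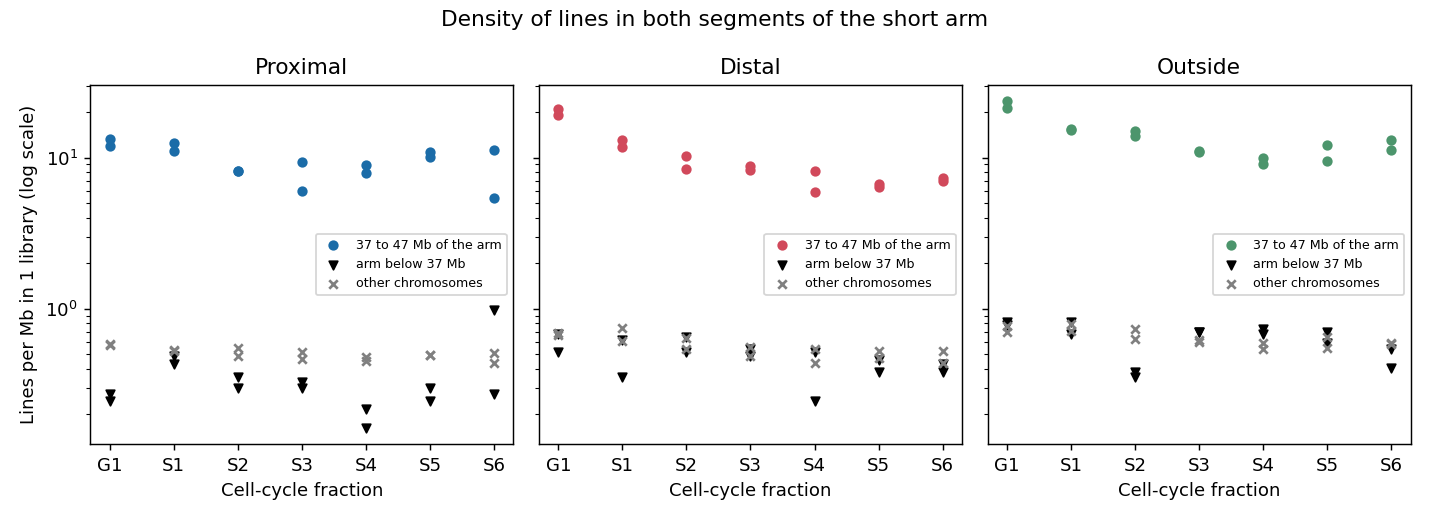
Lines per Mb in each library (log scale) by cell-cycle fraction, 1 panel per primer, for the segment from 37 to 47 Mb (coloured circles), the arm below 37 Mb (black triangles) and the occupied 1 Mb bins of other chromosomes (grey crosses). In all 42 libraries the centromeric segment lies between 10.6 and 33.6 times above other chromosomes, and the distal segment lies near them.

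The ratio of the segments held in each library. Lines per Mb were between 11.5 and 54.9 times as many in the centromeric segment as in the distal segment of the same library, with a median of 21.8. Against other chromosomes the centromeric segment was between 10.6 and 33.6 times as dense, and the distal segment between 0.339 and 2.21 times. The highest distal value came from Proximal S6 replicate 2.

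Within the distal segment no 1 Mb bin was empty. Bins had from 2 to 47 lines with a median of 18, and 23 of 37 were at or below the median of 22 for other chromosomes. A single bin, from 12 to 13 Mb, had under 0.1 times the distinct positions of the median bin, which had 15 over all 47 bins. It had 2 lines at 1 position, both in 1 Outside library. The next sparsest bins were those from 22 to 23 Mb, with 3 lines at 3 positions in 3 libraries, and from 9 to 10 Mb, with 4 lines at 3 positions in 3 libraries. These 2 bins, and the fullest and gap-containing stretches below, were picked after their values were seen. The bin from 21 to 22 Mb, next to the sparse one, had 9 lines at 9 positions in 7 libraries.

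A count of 0 was reached only when primers were taken apart. Proximal had 0 lines in 4 distal-segment bins, Distal in 1 and Outside in 1. The one-sided 95% upper limit for a count of 0 is about 3 lines. Both Proximal and Distal had 0 lines from 12 to 13 Mb, where Outside had 2. At 100 kb, 125 of 370 distal-segment bins were empty (33.8%), with a median of 1 line per bin. The longest stretches without a line ran from position 8726514 to 9671199 (945 kb), from 11719691 to 12621326 (902 kb), from 29597727 to 30415235 (818 kb) and from 25977972 to 26715290 (737 kb). Whether these bins are sparse because sequence is missing from the cells, because reads cannot be placed there or because few contacts were sampled was not tested.

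The fullest distal-segment bins were spread along the arm. The tip bin, from 0 to 1 Mb, had 47 lines at 38 positions in 26 libraries, and the bin from 10 to 11 Mb had 47 lines at 12 positions in 22 libraries. The bin from 33 to 34 Mb had 42 lines at 31 positions. The bin from 24 to 25 Mb had 41 lines at 15 positions, 20 of them at the single Proximal position above. The bin from 27 to 28 Mb had 41 lines at 27 positions. Lines and distinct positions thus ranked these bins differently.

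Few positions recurred. Of the 4142 positions, 3947 (95.3%) were seen in 1 library, 172 in 2 and 23 in 3 or more, and 78.7% had a single line. Of 4368 combinations of a position and a group, 19 (0.435%) were seen in both libraries of the group. Only 84 positions were seen from more than 1 primer, and 1 was seen from all 3.

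The 5 positions seen in most libraries all lay in the distal segment and were seen mostly from the Outside primer. Position 10726395 had 24 lines in 11 Outside libraries and none from the other primers. Those lines covered every fraction, with 2 and 3 lines in the G1 libraries and at most 5 in any library. Position 11564842 had 8 lines in 8 Outside libraries, none of them G1, and position 28878640 had 14 lines in 7 Outside libraries, none of them G1. Position 3051724 had 7 lines in 6 Outside libraries. Position 10364067 was the one shared between primers, with 9 lines in 4 Distal and 3 Outside libraries. Together the 5 positions had 62 lines, too few to compare fractions.

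Cell-cycle differences were examined first as the share of the whole library. From the Distal viewpoint the G1 libraries had 1.40% and 1.32% of their lines on the short arm, and the 12 S libraries ranged from 0.477% through a median of 0.584% to 0.936%. All 12 S libraries were below both G1 libraries. The means were 1.36% in G1 and 0.625% in S, so the share fell by 0.736 percentage points (two-sided exact permutation test over 91 splits, p = 0.011, which is the smallest it can give; adjusted p = 0.0247 over 3 primers and 3 measures).

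From the Outside viewpoint the G1 libraries had 1.62% and 1.49%, and the S libraries ranged from 0.703% through 0.853% to 1.12%. Again every S library was below both G1 libraries, and the share fell by 0.670 percentage points, from 1.55% to 0.883% (exact permutation test, adjusted p = 0.0247). With 1 G1 library left out, 1 library against 12 cannot reach the threshold, and adjusted p was 0.173 or 0.138 for Distal and 0.138 for Outside. From the Proximal viewpoint the G1 libraries had 0.795% and 0.862%, and the S libraries ranged from 0.391% through 0.615% to 0.905%. The groups overlapped, with 10 of 12 S libraries below both G1 libraries, and the difference of -0.188 percentage points did not pass (exact permutation test, adjusted p = 0.231).

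**Figure D4:**
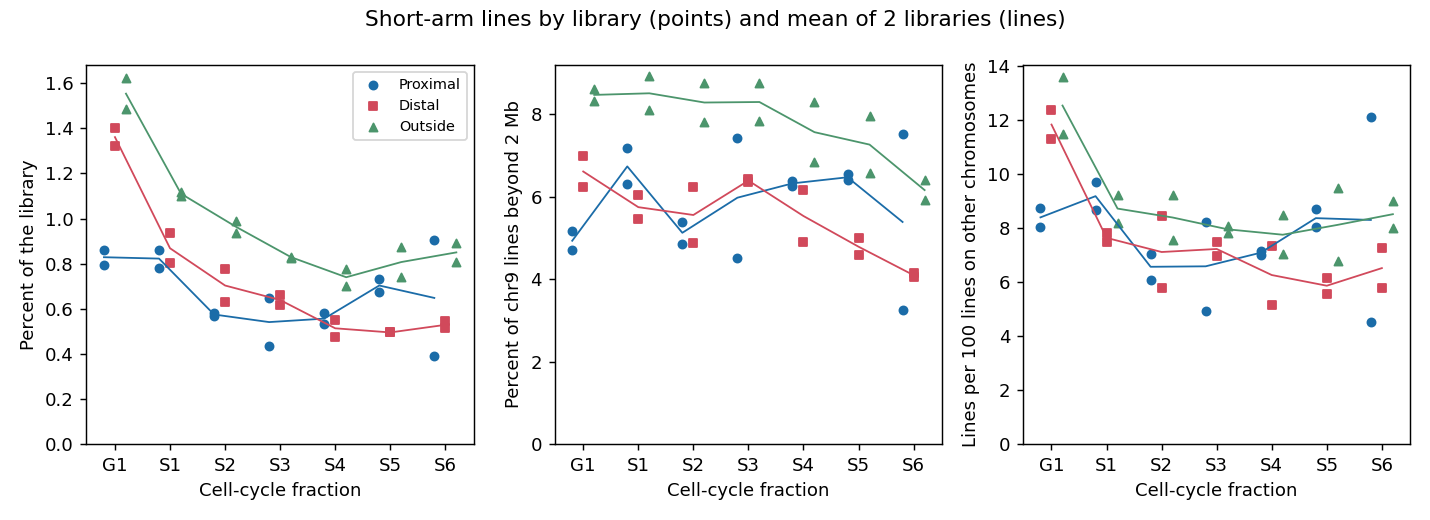
Short-arm lines in each library (points; lines join the means of 2 libraries) by fraction and primer, as percent of the library, as percent of chromosome 9 lines beyond 2 Mb from the viewpoint, and per 100 lines on other chromosomes. The G1 points of Distal and Outside stand above all their S points in the left and right panels and not in the middle panel.

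The viewpoints' changes between G1 and S were then compared with each other. On the log2 scale the share changed by -0.41 for Proximal, -1.16 for Distal and -0.83 for Outside. None of the 9 differences between primers, over 3 pairs and 3 measures, passed an exact permutation test of primer labels within fractions (p from 0.0615 to 0.253, adjusted p from 0.151 to 0.253). The lack of a call for Proximal is thus not shown to set it apart.

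Over all 7 fractions, the share of the library differed for Distal (F permutation test with 100000 resamples, adjusted p = 0.00216) and Outside (adjusted p = 0.00256). From S1 to S6, the Distal means were 0.869%, 0.703%, 0.639%, 0.514%, 0.495% and 0.529%, and the Outside means were 1.11%, 0.963%, 0.829%, 0.740%, 0.807% and 0.850%. The lowest mean was in S5 for Distal and in S4 for Outside. The Distal libraries of S4 to S6 lay between 0.477% and 0.550%, so the order of these 3 fractions is within their spread. For Proximal the test did not pass (adjusted p = 0.493), and without Proximal S6 replicate 2 it did (permutation test, adjusted p = 0.0353).

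Within S phase, the Distal share was 0.737% in S1 to S3 and 0.513% in S4 to S6. The 6 early and 6 late libraries did not overlap (exact permutation test, adjusted p = 0.0195). This call was lost, at adjusted p = 0.0584, when any of 5 late libraries was left out, namely S4 replicate 1 and both libraries of S5 and S6. Without the lines from 38 Mb up neither this Distal difference nor the Distal difference over the fractions passed (permutation tests, adjusted p = 0.545 and 0.119). The Outside means were 0.967% and 0.799%, the groups overlapped, and the test did not pass (adjusted p = 0.0584 by exact permutation). The Proximal means, 0.646% and 0.636%, differed by less than the spread between libraries (exact permutation test, adjusted p = 0.922).

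All far contacts on the chromosome were also fewer in the S libraries. Chromosome 9 lines on the long arm and more than 2 Mb from the viewpoint averaged 3150 per Distal G1 library and 1817 per Distal S library, a ratio of 1.73. The ratios were 1.59 for Proximal and 1.57 for Outside. As a percent of all chromosome 9 lines beyond 2 Mb, the short arm was therefore compared again.

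On that scale the fractions overlapped for each primer. Distal G1 libraries had 6.97% and 6.24%, and the S libraries ranged from 4.05% through 5.22% to 6.42%. Outside G1 libraries had 8.61% and 8.32%, and the S libraries ranged from 5.92% through 7.89% to 8.91%. Proximal G1 libraries had 4.70% and 5.16%, below the S median of 6.34%, with S libraries from 3.25% to 7.52%. The S minus G1 differences were -1.26 percentage points for Distal (adjusted p = 0.119), -0.788 for Outside (adjusted p = 0.367) and 1.07 for Proximal (adjusted p = 0.383), and none passed the exact permutation test. The sign of the first 2 depended on the setting: with far lines counted beyond 5 or 10 Mb the differences were 0.187 and 1.11 for Distal and 0.107 and 1.02 for Outside, and without the lines from 38 Mb up they were 0.174 and 0.181. Nor did the F permutation test over the 7 fractions call this share (adjusted p = 0.849 in Proximal, 0.101 in Distal and 0.124 in Outside libraries).

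Early S libraries (S1 to S3) averaged 5.89% and late ones (S4 to S6) 4.80% from the Distal viewpoint, and 8.36% and 6.99% from the Outside viewpoint, both with adjusted p = 0.0584 by exact permutation test. With libraries permuted within replicate number, as a block, the Outside difference passed (adjusted p = 0.015), as did the Outside test over the 7 fractions (adjusted p = 0.0485). Leaving out Distal S2 replicate 1 or S4 replicate 2 brought the Distal value to 0.0429 or 0.039, and leaving out Outside S4 replicate 2 brought the Outside value to 0.0292. Leaving out Distal S2 replicate 1 also brought the Distal test over the 7 fractions to adjusted p = 0.0478 by permutation.

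Set against contacts between chromosomes, the short arm was higher in G1 for 2 viewpoints. This direction was shared with the long arm beyond 2 Mb. The G1 over S ratio of long-arm lines was 1.73 for Distal and 1.57 for Outside, against 1.25 and 1.16 for lines on other chromosomes. Distal G1 libraries had 12.4 and 11.3 short-arm lines per 100 lines on other chromosomes, and the S libraries ranged from 5.17 through 7.11 to 8.42. Outside G1 libraries had 13.6 and 11.5, and the S libraries ranged from 6.77 through 8.14 to 9.46. For both, no S library reached a G1 library (exact permutation test, adjusted p = 0.0247 each). Proximal G1 libraries had 8.03 and 8.75, inside the S range of 4.50 to 12.1 (exact permutation test, adjusted p = 0.626). With 1 G1 library left out, adjusted p was 0.138 to 0.173 for Distal and 0.138 for Outside. Without the lines from 38 Mb up, the differences for Distal and Outside were -0.453 and -0.509 lines per 100 and did not pass (exact permutation test, adjusted p = 0.420 and 0.297).

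The segments of the arm, which were divided after the profile was seen, are described without a test. Distal libraries averaged 200.5 lines from 37 to 47 Mb in G1 and 85 in S, a ratio of 2.36. Below 37 Mb they averaged 22 and 17.2, a ratio of 1.28. Outside libraries averaged 224.5 and 122 from 37 to 47 Mb, a ratio of 1.84, and 29.5 and 22.4 below 37 Mb, a ratio of 1.32. Lines on other chromosomes had ratios of 1.25 for Distal and 1.16 for Outside. Proximal libraries averaged 126 and 91.4 in the dense segment and 9.5 and 13.4 below it. The Proximal S mean below 37 Mb leans on S6 replicate 2, with 36 lines, 20 of them at 1 position. No other Proximal library had more than 18. In both Distal and Outside the ratio of the distal segment lay closer to that of other chromosomes than to that of the dense segment. These ratios are imprecise and their differences were not tested. The distal segment had 44 Distal G1 lines (95% counting interval 32.0 to 59.1) and 59 Outside G1 lines (44.9 to 76.1).

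Pooled over primers, the distal segment had 1.11 lines per 100 lines on other chromosomes in G1, and the S fractions ran from 0.951 in S2 to 1.30 in S6. The S6 value includes the position with 20 lines in 1 Proximal library. The dense segment, relative to 100 long-arm lines beyond 2 Mb, gave 8.17 for Outside in G1 and 5.73 in S6, and 6.38 and 3.53 for Distal. For Proximal it gave 4.82 in G1 and 4.49 in S6, with 2.84 and 6.15 in the 2 S6 libraries. The fractions in between did not fall evenly. Outside S2 libraries gave 7.70 and 8.81, beside 8.39 and 7.95 in G1. Proximal libraries of S1, S4 and S5 gave 5.77 to 6.85, above both G1 libraries at 4.55 and 5.09. Distal S libraries gave 3.46 to 5.90, beside 6.87 and 5.89 in G1.

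The viewpoints differed in how often they met the short arm. Over 14 libraries each, the mean share of the library was 0.668% for Proximal, 0.730% for Distal and 0.979% for Outside. Outside exceeded Proximal by 0.311 percentage points (Proximal minus Outside -0.311, adjusted p = 0.00018) and Distal by 0.249 (Distal minus Outside -0.249, adjusted p = 0.000135), by permutation of primer labels within fractions. Proximal and Distal differed by -0.062 percentage points (permutation test, adjusted p = 0.405). Without the lines from 38 Mb up, Proximal minus Outside was -0.0441 points of the library and did not pass (permutation test, adjusted p = 0.115).

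As a percent of chromosome 9 lines beyond 2 Mb, the means were 5.85% for Proximal, 5.53% for Distal and 7.79% for Outside. Proximal minus Outside was -1.94 percentage points (permutation test, adjusted p = 0.000877) and Distal minus Outside was -2.26 (adjusted p = 0.000135), while Proximal minus Distal was 0.318 (adjusted p = 0.529). Without the lines from 38 Mb up, Proximal minus Outside was -0.259 and did not pass (permutation test, adjusted p = 0.297). Counting only far lines beyond 5 Mb, Distal minus Outside was -0.881 and no longer passed (permutation test, adjusted p = 0.0517).

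Per 100 lines on other chromosomes, Distal minus Outside was -1.36 (permutation test, adjusted p = 0.00254), and -0.274 without the lines from 38 Mb up (adjusted p = 0.131). Proximal minus Outside, at -1.07, did not pass (adjusted p = 0.177), and without Proximal S6 replicate 2 it was -1.61 (permutation test, adjusted p = 0.0139). The Outside viewpoint lies nearest to the short arm, but by little, at 64.1 Mb from the 47 Mb boundary against 64.5 Mb for Distal and 64.6 Mb for Proximal. Lines within 20 kb of the viewpoint made up 27.4% to 37.3% of Proximal libraries, 13.1% to 17.6% of Distal libraries and 12.3% to 16.5% of Outside libraries. The part of distance and of these near lines in the differences was not tested.

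Single 1 Mb bins were tested with limma on log2 of lines, scaled to the chromosome 9 lines beyond 2 Mb, plus a pseudocount. Bins needed a mean of 5 lines per library, and the short-arm bins that met this all lay from 37 Mb up, so the sparse segment had no bin in the test. For S against G1, none of 9 (Proximal), 10 (Distal) and 10 (Outside) short-arm bins was called at adjusted p below 0.05. Among all 70, 72 and 70 chromosome 9 bins tested, 0% were called lower for each primer, and 0%, 1.39% and 1.43% were called higher. At an unadjusted p below 0.05, 2 of 10 Distal short-arm bins were lower, those from 39 and 44 Mb, beside 16.7% of all Distal bins. None was lower from Proximal or Outside, where 7.14% of all bins were. With voom weights, limma called 2 of 10 Distal short-arm bins lower, beside 19.4% of all Distal bins, so both counts are near the background. The median log2 change of the short-arm bins was -0.02 for Proximal, -0.42 for Distal and -0.27 for Outside, beside -0.20, -0.31 and -0.17 over all bins tested.

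Over the 7 fractions limma called 0 short-arm bins, against 4.29% of all bins for Proximal, 4.17% for Distal and 15.7% for Outside. At an unadjusted p below 0.05 this test gave 1 Distal short-arm bin and none for Proximal or Outside, beside 18.1%, 15.7% and 21.4% of all bins. Scaled to the whole library instead, limma called 10 of 10 Distal and 4 of 10 Outside short-arm bins lower in S than in G1, beside 86.1% and 38.6% of all bins. Over the fractions it called 6 and 2 of them, beside 62.5% and 45.7% of all bins. Scaled to the whole library, the counts of 10, 4 and 6 bins lay near their background, and the 2 Outside bins over the fractions lay below it. The counts scaled to far lines also lay below theirs. With at most 10 short-arm bins per primer, no count was tested against its background.

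Between viewpoints, 71 bins were tested, 10 of them on the short arm. The bin from 37 to 38 Mb, which begins at the step, was the one bin higher in Proximal than in Distal. It had 9.59 ± 3.70 lines per 1000 chromosome 9 lines beyond 2 Mb from Proximal and 5.36 ± 2.33 from Distal (SD, n = 14 libraries each; limma log2 difference 0.76, SE 0.21, adjusted p = 0.00306). Over all bins 15.5% were higher in Proximal than Distal and 2.82% lower.

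Relative to Outside, 4 short-arm bins were lower in Proximal, those from 39, 40, 41 and 43 Mb. Their limma log2 differences were between -0.96 and -0.90, with adjusted p from 0.000114 to 0.00181. This must be read against 42.3% of all bins lower in Proximal than Outside and 16.9% higher, so that 4 of 10 is near the background. The bin from 39 to 40 Mb had 3.78 ± 1.64 lines per 1000 from Proximal, 3.14 ± 1.41 from Distal and 7.27 ± 2.58 from Outside (SD, n = 14 libraries each).

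Between Distal and Outside, 3 short-arm bins were lower in Distal, those from 39, 41 and 43 Mb, against 28.2% of all bins lower and 1.41% higher. The limma log2 differences were -1.13 from 39 Mb (adjusted p = 2.01e-05), -0.58 from 41 Mb (adjusted p = 0.029) and -0.88 from 43 Mb (adjusted p = 0.00435). The call from 41 Mb was lost when Distal G1 replicate 2 (limma adjusted p = 0.0609), Distal S5 replicate 2 (0.0517), Distal S6 replicate 2 (0.0512) or Outside S4 replicate 2 (0.0517) was left out. The bin from 38 to 39 Mb, the fullest of the arm, was not called in any pair, with 10.2, 9.43 and 11.4 lines per 1000 from Proximal, Distal and Outside.

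**Figure D5:**
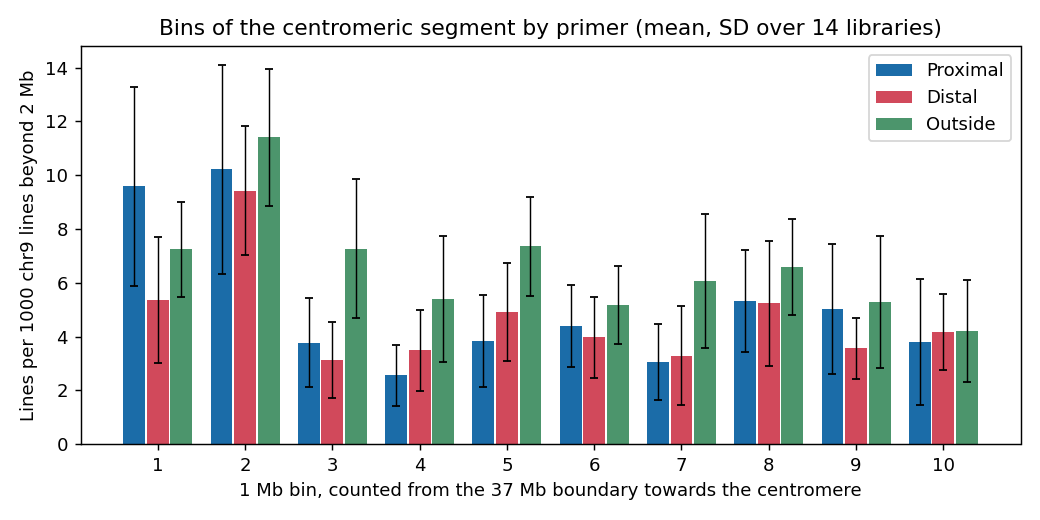
Lines per 1000 chromosome 9 lines beyond 2 Mb in the 10 bins of the centromeric segment, numbered from the 37 Mb boundary towards the centromere (bars: mean, error bars: SD over 14 libraries). Proximal exceeds Distal in the first bin, and each primer has its highest mean in the second. Outside is the highest primer from the second bin on, by a margin within the error bars in most bins.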

How the data were processed

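Per the labels' protocols, sorted cells were fixed, digested with DpnII and ligated in situ, and fragments were extended from a biotinylated primer and joined to an adapter with random molecular barcodes. Cutadapt, bedtools and the build hg19 are named in the submitters' processing notes, and neither the aligner nor any use of the barcodes is given in the sources used here. Each deposited file lists a chromosome, start and end per line, per the file headers, and holds no value of any other unit.

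Lines were counted per library in 1 Mb bins. Shares were compared by exact permutation tests, or by 100000 resamples, and adjusted by Benjamini-Hochberg over 9 tests. Bins with a mean of at least 5 lines were fitted with limma (eBayes with trend) on log2 values. As pseudocount served the lowest scaled value above 0, which was 0.932 lines for Proximal, 0.884 for Distal, 1.05 for Outside and 0.842 for all together, so changes of low bins are understated. Permutation and limma steps were tested on simulated data. Named bins were the 5 with most distinct positions, those under 0.1 times the median, the 3 fullest pericentromeric bins and every bin called; named positions were the 5 seen in most libraries. Members, bins and tests were chosen with earlier results of these data known. The division at 37 Mb, the search for the step and the test of differences between primers were added after seeing the data. Chromosomes Y and M were left out of the density of other chromosomes. Tools were Python 3.11.15 (numpy 2.4.6, pandas 2.3.3, scipy 1.17.1, matplotlib 3.10.9) and R 4.3.3 (limma 3.58.1, and the data.table package in version 1.17.8).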

Additional observations from a re-analysis of the deposited data

How the results depend on the processing

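Of 56 results, 18 kept their direction, their side of the threshold and, for counts, a value within 1.5 times under every alternative computed for them. Of the 1673 alternative values, 32 turned the sign, in 12 results. None of the 32 turned values passed, and none of the 12 results passed in the main setting. Some of the 12 did pass with the main sign in other settings. These included early minus late Outside of the far share, and Proximal minus Outside per 100 lines on other chromosomes. The ratio of line density from 37 to 47 Mb over that below 37 Mb, 22.9, was 24.2 for distinct positions and between 22.4 and 23.4 with 1 library left out. At 0.1 Mb, 125 bins had no line. By the deviations of 1 Mb bins, which correlated between -0.338 and 0.248 among same-numbered libraries, the replicate numbers did not meet the bar for pairing (over 0.1 in every pair). Library totals did differ by number: in the 6 S fractions, replicate 2 had fewer lines on other chromosomes in 6 Distal, 5 Outside and 4 Proximal fractions, and a larger share of its lines within 20 kb of the viewpoint in 6, 6 and 4. In the same order, its short-arm lines per 100 lines on other chromosomes were higher in 6, 5 and 4 fractions. Its short-arm share was higher in 3, 5 and 4 for the library and in 2, 5 and 4 for far lines. Its percent of repeated lines was lower in 5 fractions of each primer. With the replicate number as a block, 3 results came to pass by permutation: the Outside share of far lines over fractions (range of means 2.34 points, adjusted p = 0.0485) and early against late S (1.36 points, 0.015), and Distal lines per 100 on other chromosomes, early against late (1.11, 0.015); the block changed no other call. Counting each position once, early minus late Outside was 0.342 points of the library, and for the far share Outside had 2.78 points over fractions and 1.63 points early minus late, all now passing. Without the lines from 38 Mb up, 7 calls were lost: Distal library share over fractions 0.131 and early minus late 0.0408, Proximal minus Outside -0.0441 of the library and -0.259 of far lines, and per 100 lines on other chromosomes -0.453 for Distal and -0.509 for Outside (S minus G1) and -0.274 for Distal minus Outside. The far share of Distal minus Outside was -0.881 beyond 5 Mb and -1.16 beyond 10 Mb, neither passing, and early minus late Outside beyond 10 Mb was 3.33, passing. Without lines from 38 Mb up, the sign turned for the library share of Proximal early minus late (-0.0112) and Proximal minus Distal (0.0122), for the far share of S minus G1 (0.174 Distal, 0.181 Outside), Outside early minus late (-0.0272) and the log2 difference between Distal and Outside (0.0293), and per 100 lines on other chromosomes for Outside early minus late (-0.312) and Proximal minus Outside (0.0806). Proximal minus Distal turned to 0.207 of the library with positions counted once and to 0.110 of lines more than 20 kb from the viewpoint, and to -1.09 and -2.42 of far lines beyond 5 and 10 Mb. Beyond 5 and 10 Mb the far share of S minus G1 turned to 0.187 and 1.11 for Distal and to 0.107 and 1.02 for Outside. Proximal early minus late of the far share (-0.115) turned to 0.0213 with positions counted once, 0.0536 without the 5 positions with most lines, and 0.0123 and 0.510 beyond 5 and 10 Mb. The cause of these changes was not tested.

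For 1 Mb bins, calls on the short arm by limma are given with the percent of all bins called in the same fit and direction. Scaling to the whole library gave 10 Distal (86.1%) and 4 Outside (38.6%) bins for S against G1 and 6 (62.5%) and 2 (45.7%) over fractions, where scaling to far lines gave 0. Without a filter on low bins there were 1 Proximal bin over fractions (0.862%), 9 for Proximal minus Outside (29.2%) and 7 for Distal minus Outside (17.5%), the last 2 among 47 short-arm bins. With a mean of at least 10 lines, which left 4 short-arm bins, the latter were 1 (38.3%) and 0 (29.8%; 2 at an unadjusted p below 0.05). The bin from 41 Mb was still tested there and had adjusted p = 0.0519 for Distal minus Outside. Bins of 5 Mb gave 1 for Distal in S against G1 (43.8%), 1 over fractions (37.5%) and 1 for Proximal minus Outside (43.8%). With voom weights there were 2 for Distal in S against G1 (19.4%), 2 for Proximal minus Distal (1 lower, 9.86%, and 1 higher, 31.0%) and 6 for Distal minus Outside (46.5%). Counting positions once gave 1 for Outside over fractions (14.7%), 2 for Proximal minus Distal (31.3%) and 6 for Distal minus Outside (40.3%).

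With 1 library left out, S minus G1 ranged from -0.776 to -0.696 points of the library for Distal and from -0.738 to -0.603 for Outside. Per 100 lines on other chromosomes it ranged from -5.61 to -4.50 and from -5.35 to -3.23. Early minus late Distal ranged from 0.185 to 0.248 of the library, 0.940 to 1.36 of far lines and 0.889 to 1.41 per 100 lines on other chromosomes, and Outside from 1.15 to 1.62 of far lines. The range of fraction means was 0.272 to 0.437 for the Proximal library share, and for Distal 2.29 to 2.88 of far lines and 5.41 to 6.65 per 100 lines on other chromosomes. Proximal minus Outside per 100 lines on other chromosomes ranged from -1.61 to -0.529. Early minus late Proximal ranged from -0.0387 to 0.0640 of the library, -0.676 to 0.177 of far lines and -1.16 to 0.360 per 100 lines on other chromosomes, where Outside ranged from -0.0449 to 0.493 and Proximal minus Distal from -0.252 to 0.831. Below 37 Mb a library had 6 to 36 lines, which limits what can be compared there.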
